A study of Mus musculus with 288 samples.

Results

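The integrated stress response was followed here through 10 of its genes: the transcription factors Atf4, Atf5 and Ddit3, the further target genes Trib3, Chac1 and Sesn2, and the amino acid and 1-carbon enzymes Asns, Psat1, Phgdh and Shmt2. They were chosen by name as ATF4 itself and genes of its pathway. No measured value of this experiment entered the rule, but earlier results of these data were known when the members were chosen. All 10 were found among the 35904 genes of each table. Transcript levels were given as TPM, the abundance of a transcript relative to all transcripts of its library, a unit that is already divided by transcript length, so levels of different genes can be set side by side.

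The animals were male C57BL/6J mice aged 8 weeks. For 7 days they breathed either room air (normoxia) or air whose oxygen swung between 21% and 8% during their light phase (intermittent hypoxia, IH), a model of sleep apnea. Both groups then went into constant darkness in room air, and on day 2 of darkness lung, liver, kidney, muscle, heart and cerebellum were collected every 3 h, at 8 time points from 1:30 to 22:30. Each time point had 3 mice per treatment, giving 24 libraries for each of 12 groups. No library was taken while oxygen was low, so every value below describes tissue that had been back in room air since the last exposure.

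ATF4 is the shared effector of several kinases that sense amino acid shortage, unfolded protein in the endoplasmic reticulum, viral RNA and lack of heme. Each kinase phosphorylates the translation factor eIF2alpha, which slows protein synthesis in general while allowing the Atf4 transcript to be translated. ATF4 then binds C/EBP-ATF response elements and switches on genes for amino acid synthesis and transport, for aminoacyl-tRNA synthetases and for its own restraint. Because ATF4 is set largely by translation, an mRNA level such as those given here does not measure the protein.

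To show what ATF4 reads in DNA, the promoters of the members (RefSeq, GRCm38.p6, 250 bases before each start, 12 windows for the 10 genes) were searched on both strands for 2 forms of the response element, TGATGNAA and TGANGCAA. Among all 32851 promoter windows of this length, 3.45% held the first form, 3.12% the second and 5.72% either. Among the members, Asns and Chac1 held a match. The Asns match, 23 bases before the RefSeq start, is shown with its flanks. The gene coordinates given below come from another annotation, in which Asns starts further upstream, at 7693254, so that this match lies inside the gene. The Chac1 stretch is shown because it holds 2 matches, 250 and 193 bases before the RefSeq start. The second of them is on the other strand and in a form that both spellings cover. Capitals mark the matches.
Asns, chr6:7693214-7693243, minus strand: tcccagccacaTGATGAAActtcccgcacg
Chac1, chr2:119350992-119351067, plus strand: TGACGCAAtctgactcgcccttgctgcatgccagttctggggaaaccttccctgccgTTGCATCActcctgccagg
A match is a description of letters, and the absence of one in the other members says nothing about ATF4 at those genes, which may carry elements outside this window.

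All 4 marker genes of each labelled tissue were at a mean of 1 TPM or more in it, no library was an exact copy of another, and the summed TPM of a library ran from 989211 to 999188. In this bulk tissue RNA, fewer cells of a type and less RNA per cell cannot be told apart. A total of 8 libraries were picked as standing apart by marker genes of another tissue or cell type. In the liver, the IH library of replicate 2 at 13:30 had a summed heart marker level of 4143 TPM (median of liver libraries 18.4) and liver markers at 1047 TPM (median 50690). In the cerebellum, the IH libraries of replicate 3 at 1:30 and replicate 1 at 10:30 had heart markers at 4733 and 2784 TPM (median 341.7), with cerebellar markers at 255.2 and 1169 TPM (median 3061). In the heart, the normoxia libraries of replicate 3 at 7:30 and 19:30 and the IH library of replicate 2 at 16:30 had lymphocyte markers at 332.5, 206.6 and 79.5 TPM (median 3.674). In the muscle, the normoxia library of replicate 2 at 7:30 and the IH library of replicate 2 at 16:30 had adipocyte markers at 10220 and 14380 TPM (median 3763). The changes of members in these tissues, their correlations and the lists were computed again without them, and the values are given below where a call or a count moved. The pick was not complete. A cerebellum normoxia library held skeletal muscle markers at 4287 TPM (median 62.55). Lung IH libraries reached down to 33320 TPM of lung markers (normoxia minimum 133100) and up to 454.8 TPM of liver markers (median 1.067). Liver libraries had kidney markers at a median of 3.823 TPM in normoxia and 89.59 TPM after IH. None of these was left out for its markers, and both cerebellum libraries left out were IH libraries.

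Levels of the 10 genes differed far more between tissues than between treatments. In normoxia the mean of Phgdh was 269 times higher in the cerebellum than in the liver, and that of Psat1 110 times, while Atf4 differed by 3.36 times between its highest and lowest tissue. Neighbouring tissues in the order of each gene were compared by a two-sided permutation test of the means, and after Benjamini-Hochberg adjustment over the 50 comparisons 38 differed and 12 did not (adjusted p of 0.05 or less).

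**Figure D1:**
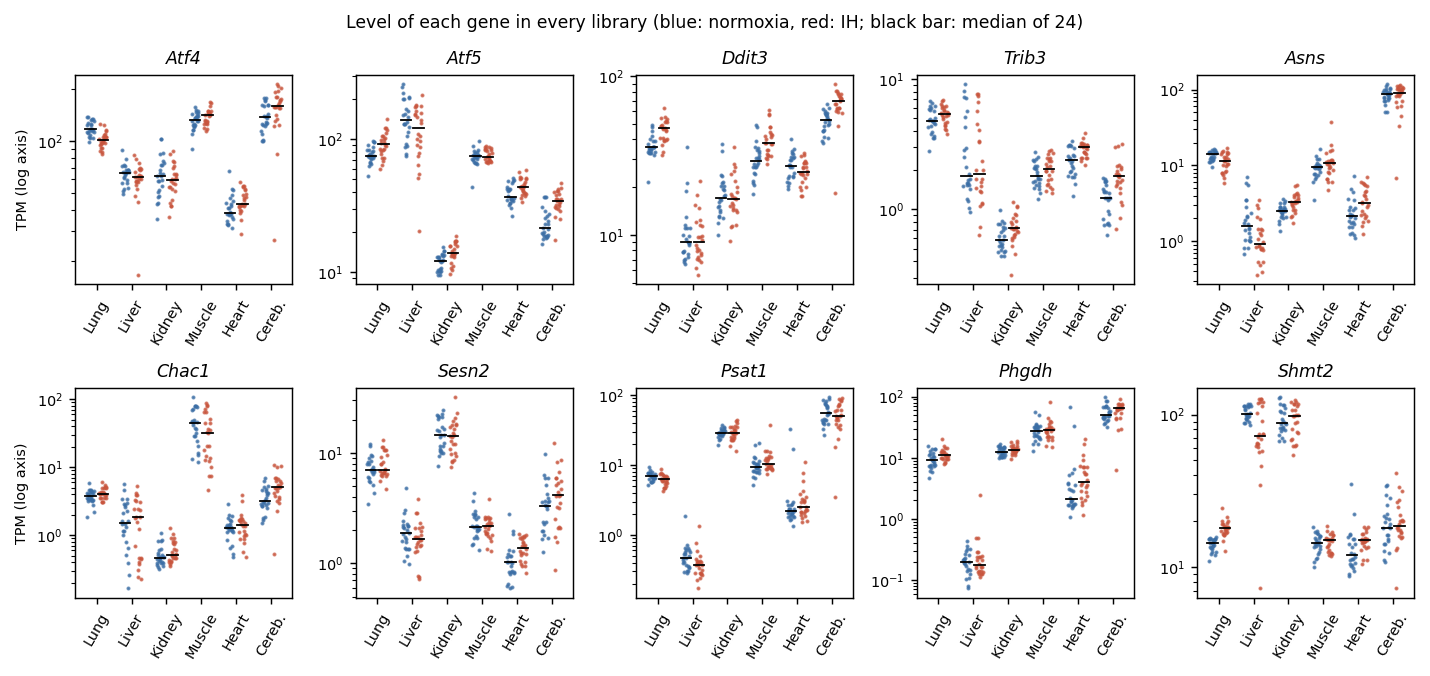
Transcript level of each of the 10 genes (TPM as deposited, log axis) in the 6 tissues. Points are single libraries, 24 in normoxia (blue) and 24 after IH (red), and black bars are medians. Phgdh, Psat1 and Asns stand highest in the cerebellum, Chac1 in the muscle, Sesn2 in the kidney, and Atf5 and Shmt2 in the liver.

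Atf4 (chr15:80255184-80257541, plus strand, GRCm38) had its highest mean in the cerebellum, 138 ± 24.8 TPM (SD, n = 24), and muscle, 132 ± 15.1 TPM, which did not differ beyond their spread (adjusted p = 0.27, permutation test). The lung followed at 119 ± 11.4 TPM. The liver, at 64.5 ± 8.91 TPM, and the kidney, at 64.3 ± 17.4 TPM, did not differ (adjusted p = 0.97, permutation test), and the heart was lowest at 41.0 ± 8.11 TPM. Its level was thus above 41 TPM on average in each of the 6 tissues, the narrowest span of the 10 genes.

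Atf5 (chr7:44812256-44816658, minus strand), a close relative of ATF4 that acts in the mitochondrial stress response, had another order. Its level was highest in the liver, 150.4 ± 53.4 TPM, and 12.5 times lower in the kidney, at 12.1 ± 1.72 TPM. Lung and muscle, at 77.0 ± 10.9 and 74.0 ± 9.68 TPM, did not differ (adjusted p = 0.29, permutation test). Ddit3 (chr10:127290774-127296288, plus strand), which encodes CHOP, the pro-apoptotic factor of the pathway, was highest in the cerebellum, 52.4 ± 8.12 TPM, and 4.77 times lower in the liver, the lowest tissue. The annotation holds a further gene identifier named Ddit3 that overlaps this one, so its reads may have been divided between the 2.

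Of the further target genes, Chac1 (chr2:119351229-119354381, plus strand), which degrades glutathione, was a muscle gene here. Its mean was 46.0 ± 25.8 TPM in muscle, 12.2 times that of the lung, the next tissue, and 0.520 ± 0.190 TPM in the kidney. Sesn2 (chr4:132492032-132510501, minus strand), which restrains mTORC1 when leucine is short, was highest in the kidney, 15.3 ± 5.05 TPM, and lowest in the heart, 1.10 ± 0.495 TPM. Trib3 (chr2:152337422-152344032, minus strand), a pseudokinase that dampens ATF4 and CHOP activity, was low in all 6 tissues, from 4.87 ± 1.06 TPM in the lung to 0.618 ± 0.143 TPM in the kidney.

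Of the enzymes, Phgdh and Psat1 had the widest spans of the 10 genes. Asns (chr6:7675169-7693254, minus strand), asparagine synthetase, stood at 85.4 ± 17.3 TPM in the cerebellum, 6.25 times the lung, while kidney, heart and liver lay between 2.53 and 2.23 TPM, with no difference between neighbours (adjusted p = 0.97 and 0.6, permutation test). Phgdh (chr3:98313170-98339990, minus strand) and Psat1 (chr19:15904678-15947337, minus strand), the first enzymes of serine synthesis, were at 55.8 ± 16.9 and 57.8 ± 19.1 TPM in the cerebellum and at 0.208 ± 0.0917 and 0.523 ± 0.314 TPM in the liver. Shmt2 (chr10:127517123-127522444, minus strand), which passes the serine carbon to the mitochondrial folate pool, ran the other way, with 103 ± 10.6 TPM in the liver, 93.1 ± 19.0 TPM in the kidney and 13.6 ± 5.52 TPM in the heart. In the heart the means of Phgdh and Psat1 rested on few libraries. The 3 heart libraries with raised lymphocyte markers held Phgdh at 67.4, 32.5 and 20.4 TPM and Psat1 at 32.8, 16.9 and 11.2 TPM, against group means of 6.65 and 4.07 TPM in normoxia.

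IH against normoxia was tested with limma on log2 of TPM after each library had been scaled to its tissue, over all genes with a mean of 1 TPM or more, and a change was called where the p adjusted by Benjamini-Hochberg over those genes was 0.05 or less. Of the 60 pairs of member and tissue, 56 could be tested. Psat1 and Phgdh in the liver and Trib3 and Chac1 in the kidney lay below 1 TPM. A total of 15 pairs changed, 10 higher and 5 lower after IH, and 1 of them (Asns in the lung) by 1.5-fold or more. In all 60 pairs the libraries of the 2 treatments overlapped.

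By tissue, 3 of 10 members fell in the lung, where 70.4% of all tested genes changed (28.9% higher and 41.5% lower). In the liver 1 of 8 fell, against 24.2% of all genes changed (10.9% higher, 13.3% lower), and in the kidney 2 of 8 rose, against 19.8% (8.25% higher, 11.5% lower). In the muscle 1 of 10 rose, against 10.4% (5.48% higher, 4.89% lower). In the heart 3 of 10 rose and 1 fell, against 45.2% (28% higher, 17.3% lower), and in the cerebellum 4 of 10 rose, against 15% (9.76% higher, 5.24% lower). Among all genes the share that changed by 1.5-fold or more was 13.5% for lung, 3.66% for liver, 0.783% for kidney, 0.374% for muscle, 2.95% for heart and 2.64% for cerebellum. The members had a median log2 change of -0.12 for lung, -0.01 for liver, 0.03 for kidney, -0.03 for muscle, 0.06 for heart and 0.18 for cerebellum. The members' share of 30% in the lung lay below the background and that of 40% in the cerebellum above it. With 10 members this contrast of shares was given as a description and was not tested.

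Scaling set part of the direction. It moved the change of genes by about 0.29 log2 in the lung, -0.12 in the liver and 0.11 in the heart, and by less in the other tissues. On TPM as deposited, 4 lung members were higher and 3 lower. In the liver 2 were then lower, while 2 kidney members, 1 muscle member, 4 heart members and 3 cerebellar members were higher. Among all genes that changed in the lung, the share that was higher was 41.1% after scaling and 83.7% as deposited. These shares were 45.1% and 16.5% for liver, 41.7% and 26% for kidney, 52.9% and 95.8% for muscle, 61.8% and 85.4% for heart, and 65% and 65.9% for cerebellum. The 3 falls in the lung kept their direction and their call either way.

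**Figure D2:**
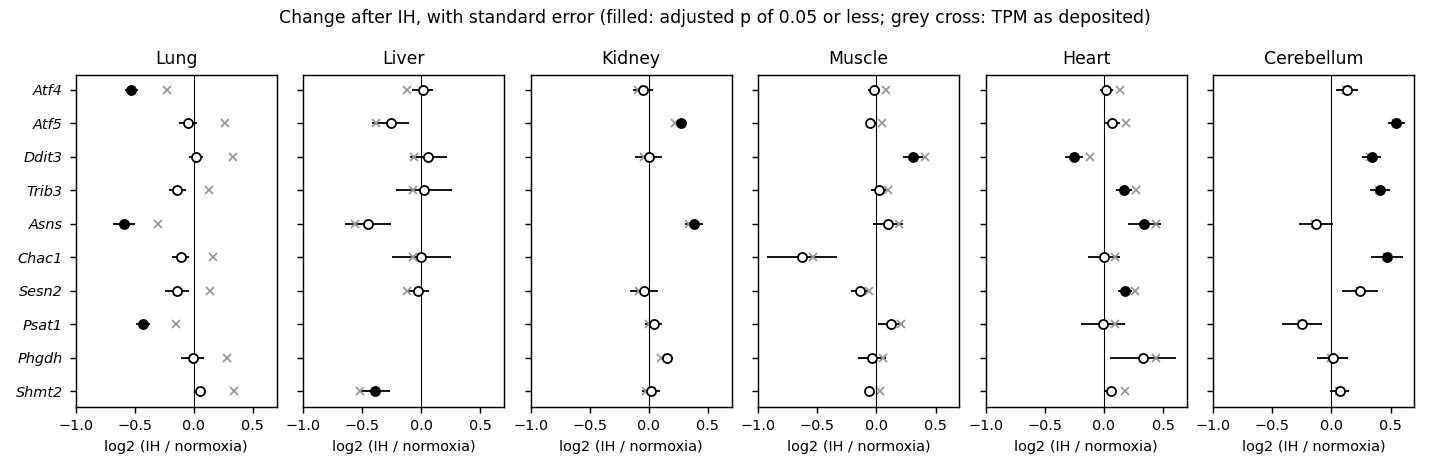
Change of each of the 10 genes after IH (log2, IH minus normoxia, from limma) in the 6 tissues, with bars of 1 standard error. Filled points passed the adjusted p of 0.05, and grey crosses give the change on TPM as deposited. Atf4, Asns and Psat1 lie lowest in the lung and Atf5, Ddit3, Trib3 and Chac1 rise together in the cerebellum.

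Atf4 changed in 1 of 6 tissues. In the lung its deposited level ran from 98.8 to 138 TPM in normoxia (median 117) and from 83.8 to 125 TPM after IH (median 101). A total of 11 IH libraries lay below every normoxia library and 8 normoxia libraries above every IH library, with the remainder overlapping. The change was -0.53 log2 (SE 0.0546, adjusted p = 1.34e-11, limma), and it was -0.38, -0.68 and -0.57 within replicate numbers 1, 2 and 3. The scaled IH mean was above the normoxia mean at 0 of 8 time points. On TPM as deposited the fall was smaller, -0.23 log2 (adjusted p = 8.67e-06).

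In the other tissues Atf4 did not pass. Its change was 0.01 for liver, -0.05 for kidney, -0.02 for muscle, 0.02 for heart and 0.13 (SE 0.0917, adjusted p = 0.349) for cerebellum. Without the 2 cerebellum libraries with raised heart markers, which held Atf4 at 26.8 and 83.6 TPM, the cerebellar change was 0.22 (adjusted p = 0.00944).

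Atf5 rose in the cerebellum and the kidney. In the cerebellum it ran from 16.2 to 37.1 TPM in normoxia (median 21.3) and from 17.5 to 46.4 TPM after IH (median 34.5), and 8 IH libraries lay above every normoxia library. The change was 0.55 log2 (SE 0.0744, adjusted p = 1.93e-06), a 1.47-fold rise, with the IH mean higher at 8 of 8 time points. By replicate number it was 0.73, 0.80 and 0.14. The replicates also differed in normoxia, with a median of 29.0 TPM in replicate 3 against 19.8 and 19.0 TPM in replicates 1 and 2. In the kidney Atf5 went from 12.1 ± 1.72 to 14.3 ± 2.41 TPM, a change of 0.27 log2 (SE 0.0538, adjusted p = 3.63e-04), also higher at 8 of 8 time points, and its 3 replicate numbers gave 0.23, 0.31 and 0.25. After scaling, the kidney rise was thus even across the replicate numbers, which the cerebellar rise was not. In deposited TPM the kidney rise was uneven too. Its medians went from 13.0 to 13.4, from 11.5 to 15.3 and from 10.4 to 15.1 TPM in replicates 1, 2 and 3.

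Ddit3 changed in 3 tissues and in both directions. In the muscle it ran from 18.1 to 49.1 TPM in normoxia (median 29.3) and from 28.1 to 61.0 TPM after IH (median 37.9), and 11 normoxia libraries lay below every IH library. The change was 0.31 log2 (SE 0.0826, adjusted p = 0.00976), higher at 7 of 8 time points, and 0.35, 0.23 and 0.35 by replicate number. Leaving out replicates 1, 2 or 3 took the adjusted p to between 0.0502 and 0.0666, so the call needed all 3. In the cerebellum Ddit3 went from 52.4 ± 8.12 to 67.5 ± 13.8 TPM, and 14 IH libraries lay above every normoxia library (0.34 log2, SE 0.0822, adjusted p = 0.0032). In the heart it fell from 27.6 ± 5.17 to 25.2 ± 4.33 TPM (-0.25 log2, SE 0.0763, adjusted p = 0.00757), a fall that did not pass on TPM as deposited (-0.12, adjusted p = 0.174) or without replicate 1 (-0.16, adjusted p = 0.195).

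**Figure D3:**
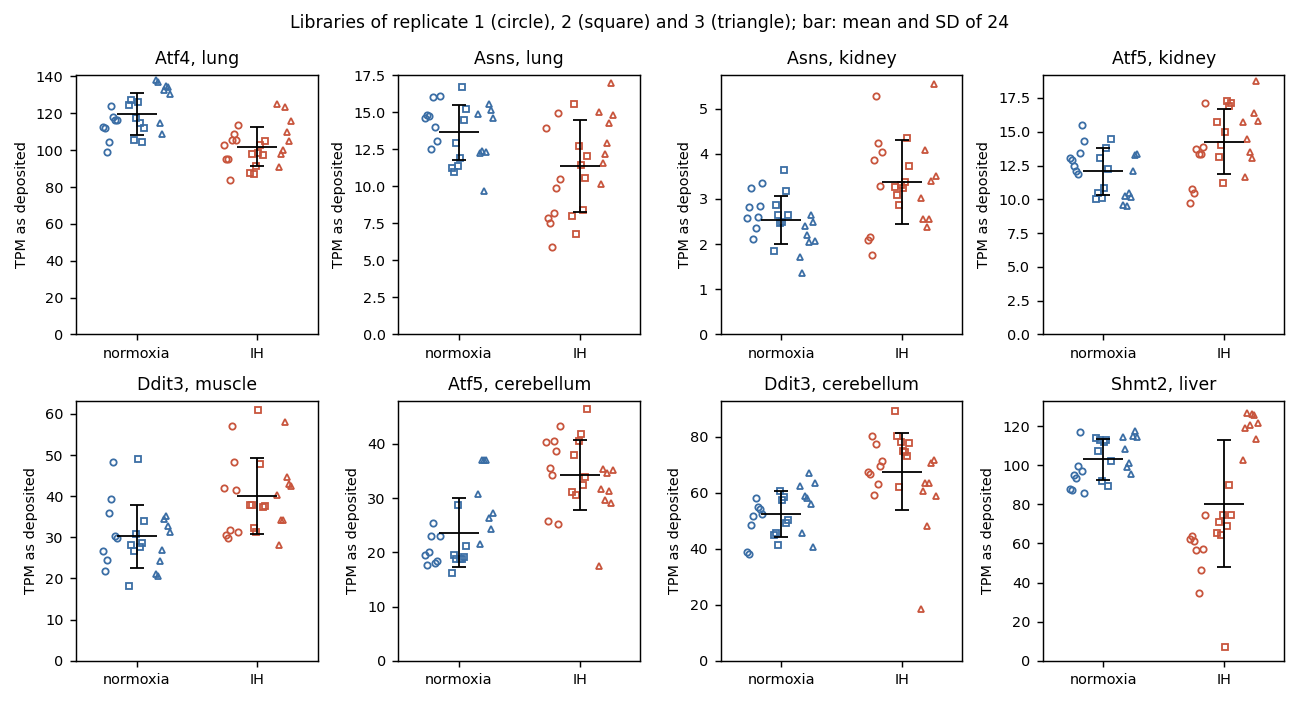
Deposited TPM of 8 of the changes, with a point for each of the 24 normoxia and 24 IH libraries, symbols for replicate numbers 1 to 3, and bars for the mean and SD. In the cerebellum the IH median of Atf5 is 31.5 TPM in replicate 3 against 37.2 and 36.0 TPM in replicates 1 and 2. Its normoxia median is 29.0 TPM in replicate 3 against 19.8 and 19.0 TPM in replicates 1 and 2. Liver Shmt2 after IH splits by replicate number.

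Among the further target genes, Trib3 and Chac1 rose in the cerebellum with Atf5 and Ddit3. Trib3 ran from 0.638 to 1.75 TPM in normoxia (median 1.23) and from 0.709 to 3.17 TPM after IH (median 1.80), and 13 IH libraries lay above every normoxia library. Its change was 0.41 log2 (SE 0.0877, adjusted p = 0.00112). Chac1 ran from 1.49 to 6.81 TPM in normoxia (median 3.16) and from 0.521 to 10.6 TPM after IH (median 5.04), with a change of 0.47 log2 (SE 0.136, adjusted p = 0.0148). Chac1 did not pass on TPM as deposited (adjusted p = 0.0929), adjusted for how many genes a library detected (0.35, adjusted p = 0.084), or without the 4:30 or the 7:30 libraries (adjusted p = 0.0798 and 0.0716). For both, the IH mean was higher at 8 of 8 time points.

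The cerebellar rises were carried by replicate numbers 1 and 2. Within replicate number 3 alone the changes were 0.14 for Atf5, 0.05 for Ddit3, 0.13 for Trib3 and -0.01 for Chac1. Without replicate 1 or without replicate 2, Atf5 was the 1 member that still passed. Without replicate 3, a total of 6 passed, Atf4 (0.24, adjusted p = 0.0259) and Sesn2 (0.51, adjusted p = 0.0259) among them. The summed heart markers of cerebellum libraries ran from 30.7 to 2069 TPM in normoxia and from 16.7 to 4733 TPM after IH. After the 2 IH libraries with the highest sums were left out, 5 members passed.

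In the heart, Trib3 went from 2.36 ± 0.563 to 2.91 ± 0.390 TPM (0.17 log2, SE 0.0715, adjusted p = 0.0452) and Sesn2 from 1.10 ± 0.495 to 1.37 ± 0.313 TPM (0.18 log2, SE 0.0575, adjusted p = 0.00838). Trib3 did not pass without replicate 2 (adjusted p = 0.12), without replicate 3 (adjusted p = 0.579) or without the 3 libraries with raised lymphocyte markers (0.13, adjusted p = 0.0606), and Sesn2 did not without replicate 1 (adjusted p = 0.31). Chac1 in the muscle, where it is most abundant, had the largest change of any tested pair, from 46.0 ± 25.8 to 36.1 ± 26.5 TPM, but its spread was wide and the change of -0.63 log2 (SE 0.293) did not pass (adjusted p = 0.171).

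Asns changed in 3 tissues, lower in the lung and higher in the kidney and heart. In the lung it ran from 9.69 to 16.7 TPM in normoxia (median 14.3) and from 5.88 to 17.0 TPM after IH (median 11.5), with 7 IH libraries below every normoxia library. After scaling the change was -0.59 log2 (SE 0.0902, adjusted p = 1.77e-07), the 1 member change past 1.5-fold. By replicate number it was -0.80, -0.70 and -0.30. On TPM as deposited the fall was smaller, -0.3 log2 (adjusted p = 0.00337, limma), and did not reach 1.5-fold. The deposited median was lower after IH in replicates 1 and 2 but not in replicate 3 (13.52 TPM in normoxia, 13.59 TPM after IH). Lung libraries after IH also had more genes detected, a mean of 25455 against 22694. Once this number entered the model as a covariate the Asns change was -0.05 (adjusted p = 0.717, limma), while Atf4 and Psat1 still passed. With the same term lung Atf5 (0.33), Sesn2 (0.38) and Phgdh (0.40) passed as higher. The number itself went with treatment, at 21746 to 25400 in normoxia and 23622 to 28284 after IH. The term therefore cannot be fully told apart from treatment in the lung.

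In the kidney Asns went from 2.53 ± 0.532 to 3.37 ± 0.931 TPM (0.38 log2, SE 0.0781, adjusted p = 4.85e-04), higher at 8 of 8 time points and by 0.44, 0.28 and 0.41 in the 3 replicate numbers. In the heart it went from 2.51 ± 1.42 to 3.59 ± 1.65 TPM (0.34 log2, SE 0.139, adjusted p = 0.0404), and it lost the call in 13 of 24 alternatives, among them leaving out replicate 1 (adjusted p = 0.2) or replicate 2 (adjusted p = 0.148), leaving out any of 5 single time points (adjusted p of 0.0577 to 0.0941), upper quartile scaling (adjusted p = 0.0675) and no filter (adjusted p = 0.0505). Without the 3 libraries with raised lymphocyte markers it was 0.35 (adjusted p = 0.0414). Heart libraries differed in the number of genes detected too, with means of 25124 in normoxia and 21447 after IH. The ranges did not overlap, at 22988 to 28331 in normoxia and 20316 to 22793 after IH. A term for this number therefore cannot be told apart from treatment in the heart, and a call lost with it decides nothing. With that number as a covariate none of the 4 heart calls remained in limma, at changes of -0.15 for Ddit3 (adjusted p = 0.556), 0.12 for Trib3 (adjusted p = 0.625), 0.44 for Asns (adjusted p = 0.319) and 0.19 for Sesn2 (adjusted p = 0.286).

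Psat1 fell in the lung, from 6.92 ± 0.972 to 6.21 ± 1.10 TPM as deposited. After scaling the change was -0.43 log2 (SE 0.0559, adjusted p = 3.54e-09, limma), and -0.48, -0.48 and -0.37 in the 3 replicate numbers. Scaling set part of this size. Over 24 alternatives the change ran from -0.48 to -0.15 log2, with an adjusted p of at most 0.0315 (limma). Phgdh passed in 0 of 5 tissues in limma, and in 1 its unadjusted p was under 0.05. It came nearest in the kidney (0.15 log2, SE 0.0575, adjusted p = 0.0659), and in the heart it reached 0.53 (adjusted p = 0.0221) once the 3 libraries with raised lymphocyte markers were left out, against 0.33 (adjusted p = 0.339) with them. Psat1 and Phgdh thus passed together in none of the 5 tissues in which both were tested.

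Shmt2 fell in the liver, from 103 ± 10.6 to 80.4 ± 32.6 TPM (-0.39 log2, SE 0.127, adjusted p = 0.02). The IH libraries split by replicate number. Those of replicate 1 ran from 34.5 to 74.4 TPM, those of replicate 2 from 7.24 to 90.1 TPM and those of replicate 3 from 102.6 to 127 TPM, against 85.7 to 117.5 TPM over the normoxia libraries. The change was -0.64, -0.78 and 0.23 by replicate number, and it did not pass without replicate 1 (adjusted p = 0.451) or replicate 2 (adjusted p = 0.334). The lowest value, 7.24 TPM, belonged to the liver library with heart markers, and without it the change was -0.29 (adjusted p = 0.00419). In the lung the call on Shmt2 rested on the scaling. As deposited it went from 14.0 ± 1.33 to 17.96 ± 2.245 TPM, with 22 IH libraries above every normoxia library (0.34 log2, adjusted p = 1.14e-08), while after scaling the change was 0.05 (SE 0.028, adjusted p = 0.134) and with upper quartile scaling 0.14 (adjusted p = 1.95e-04). Liver Asns, at 2.23 ± 1.73 TPM in normoxia and 1.26 ± 0.837 TPM after IH, did not pass (-0.45 log2, adjusted p = 0.0878) but did on TPM as deposited (-0.56, adjusted p = 0.0316).

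Whether the change after IH differed between tissues was tested by an interaction term over the libraries of all 6 tissues. It did for 9 of 10 members, with Phgdh the exception (adjusted p = 0.567), and for 82.2% of all genes. Between lung and heart, the tissues with the most changed genes, it differed for 4 members and for 56.3% of all genes. The lung change minus the heart change was -0.55 log2 for Atf4 (SE 0.105, adjusted p = 1.48e-06), -0.93 for Asns (SE 0.194, adjusted p = 1.31e-05), -0.43 for Psat1 (SE 0.181, adjusted p = 0.0357) and -0.33 for Sesn2 (SE 0.148, adjusted p = 0.0484). Psat1 and Sesn2 lost this call on TPM as deposited (-0.24 and -0.12, adjusted p = 0.365 and 0.625), without replicate 1 (-0.33 and -0.08, adjusted p = 0.283 and 0.767) and without replicate 2 (-0.20 and -0.27, adjusted p = 0.488 and 0.224). Without replicate 1 the count over 6 tissues was 3, and without replicate 2 it was 5.

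Sampling around the clock allowed a 24-hour cosine to be fitted to each member in each treatment. Trib3 and Atf5 cycled in both treatments in the liver, where Atf4 itself did not pass (amplitude 0.06 log2 in normoxia and 0.07 after IH). In the kidney 2 members also passed in both treatments. Of the 56 tested pairs, 9 were rhythmic in normoxia and 9 after IH (adjusted p of 0.05 or less), 5 of them in both. The labels do not say whether the hours are clock or circadian hours. For reference, the clock genes Arntl and Dbp peaked in the liver of normoxic mice at 22.1 and 10.2 h.

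By tissue, 3 members were rhythmic in the liver in each treatment, where 5.73% of all genes were in normoxia and 7.52% after IH. In the kidney 3 were in each treatment, against 11.2% and 10% of all genes. In the muscle 2 were in each, against 5.7% and 12%, and in the heart 1 in each, against 1.57% and 2.28%. In the lung, where 4.09% and 8.56% of all genes were rhythmic, and in the cerebellum, where 0.00672% and 0.0403% were, no member passed in limma. At an unadjusted p under 0.05 there were 4 lung members in each treatment, and 0 and 1 cerebellar members.

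Liver Trib3 averaged 7.12 ± 2.03 TPM (SD, 3 mice) at 7:30 in normoxia and 1.37 ± 0.387 TPM at 22:30, a 5.2-fold span. After IH its highest mean was 7.27 ± 0.515 TPM, again at 7:30, and its lowest 1.02 ± 0.376 TPM at 13:30. The fitted amplitude was 1.01 log2 in both treatments (SE 0.127), with the peak at 6.5 h in normoxia (adjusted p = 6.03e-07, limma) and 6.8 h after IH (adjusted p = 6.16e-07, limma). Liver Atf5 peaked earlier, with 235.4 ± 32.4 TPM at 1:30 against 81.6 ± 9.69 TPM at 13:30 in normoxia, and 173.5 ± 8.97 TPM at 4:30 against 49.8 ± 28.9 TPM at 13:30 after IH. Its amplitude was 0.63 in normoxia and 0.66 after IH, and the fitted peaks were at 1.8 and 1.3 h. Both genes stayed rhythmic in both treatments under all 9 settings tried.

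**Figure D4:**
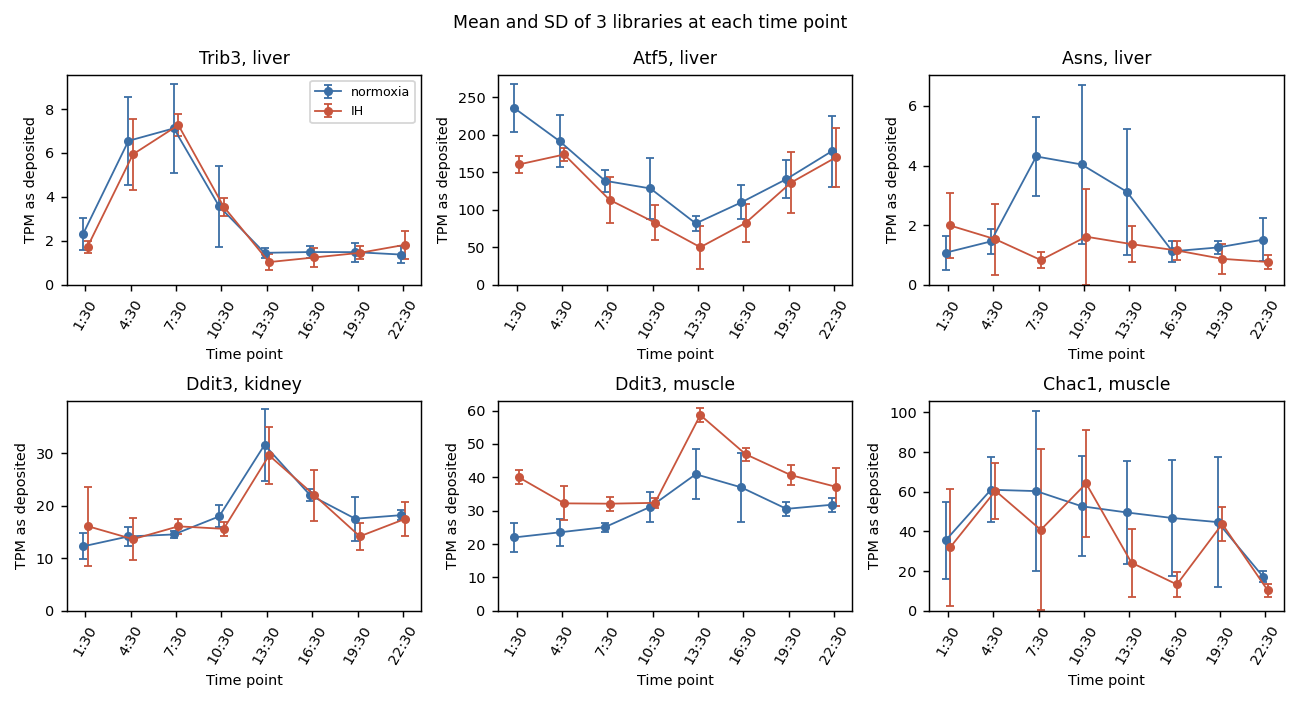
Mean deposited TPM against time point for Trib3, Atf5 and Asns in the liver, Ddit3 in kidney and muscle, and Chac1 in the muscle, with bars of 1 SD over 3 libraries, in normoxia (blue) and after IH (red). Liver Trib3 rises from 1:30 to its highest mean at 7:30 in both treatments, and Ddit3 in kidney and muscle is highest at 13:30.

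Ddit3 had its highest mean at 13:30 in 11 of the 12 groups of tissue and treatment, the exception being the lung after IH, where it was highest at 16:30 with 50.7 TPM. Its highest means were 31.6 and 29.6 TPM in the kidney, 40.9 and 58.7 TPM in the muscle, and 32.6 and 31.0 TPM in the heart (normoxia and IH). The rhythm passed in both treatments in the kidney (amplitude 0.43 and 0.31 log2) and the muscle (0.33 and 0.30), and in normoxia in the heart (0.29, adjusted p = 0.0138, limma). Atf4 was rhythmic in the kidney in normoxia, with an amplitude of 0.32 and a peak at 15.9 h, about an hour after that of Ddit3 at 15 h. Kidney Atf5 was rhythmic in both treatments with a small amplitude, 0.17 and 0.19 log2, and peaked at 21 and 19.8 h.

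Several of these calls depended on the setting. Among 9 settings, kidney Atf5 was rhythmic in normoxia in 3 and after IH in 7, kidney Ddit3 in 8 and 4, heart Ddit3 in normoxia in 5, kidney Atf4 in normoxia in 7, and muscle Ddit3 in 8 in each treatment.

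Further rhythms were weaker or passed in one treatment. Liver Asns passed in normoxia (amplitude 0.71, peak 9.8 h, adjusted p = 0.0205, limma) and liver Chac1 after IH (0.79, 6.9 h, adjusted p = 0.0433). Kidney Asns (0.25, 18 h), muscle Asns (0.51, 17 h) and heart Chac1 (0.47, 8.1 h) passed after IH, and muscle Sesn2 in normoxia (0.26, 8.3 h). Of the 9 settings, 6 called liver Asns, 5 liver Chac1, 4 kidney Asns, 8 muscle Asns, 4 heart Chac1 and 4 muscle Sesn2. The muscle IH library of replicate 2 at 16:30 held Asns at 37.5 TPM, beside raised adipocyte markers, and without the libraries that stand apart the adjusted p of muscle Asns was 0.0114 in place of 0.00233. Passing in one treatment is not a difference between treatments. The test of that difference called 0 of 56 pairs in limma, and 1 pair, Sesn2 in the muscle, had an unadjusted p under 0.05 (p = 0.0226). Among all genes 0% differed in lung, liver, kidney, muscle, heart or cerebellum.

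Members could also be compared library by library, which shows whether they rose and fell together in the same mouse. Over the 48 libraries of a tissue, with the mean of each treatment removed, 236 pairs of members were correlated, and 58 passed for both Pearson's r and Spearman's rho after adjustment over the 236 (permutation test, 47 positive and 11 negative). The cerebellum had 18 such pairs of 45, all positive, and the muscle 13 of 45. The lung had 7 of 45, the heart 10 of 45, the liver 6 of 28 and the kidney 4 of 28.

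These counts were set against all pairs of tested genes by the share with r of 0.4 or more. In the cerebellum it was 46.7% of member pairs (21 of 45) and 18.3% of all gene pairs, and without the 2 libraries with raised heart markers it was 33.3% (15 of 45) and 17.4%. In the muscle the shares were 17.8% and 10.7%, and 11.1% and 10.3% without the 2 libraries with raised adipocyte markers. Member pairs lay at or below all pairs in the lung (11.1% and 19.2%), liver (14.3% and 17.9%), kidney (14.3% and 14.8%) and heart (15.6% and 16.3%, or 8.89% and 12.8% without the 3 libraries with raised lymphocyte markers). Correlations of -0.4 or less made up 0% of member pairs and 17% of all gene pairs in the cerebellum, and 0% and 18.5% in the lung. These shares were 7.14% and 15.4% for liver and 7.14% and 13.1% for kidney. They were 11.1% and 9.19% for muscle and 20% and 15.3% for heart. Without the libraries that stand apart they were 6.67% and 8.75% for muscle and 6.67% and 11% for heart. The difference between member pairs and all pairs was not tested.

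The factor pair Atf4 and Ddit3 was the most widely shared. It passed in 5 of 6 tissues, with r from 0.43 in the liver to 0.83 in the kidney, the exception being the lung at 0.16. Within time points its r ran from -0.058 to 0.64 over the 6 tissues. In the kidney rho was 0.82, r was 0.86 within replicate numbers and 0.60 within time points, and r was 0.79 without the 2 farthest libraries (adjusted p = 0.00012 for r and 0.00017 for rho, permutation test). Atf4 and Trib3 passed in 0 of 5 tissues, with r between -0.31 and 0.037.

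Among the enzymes, Psat1 and Phgdh passed in 4 of 5 tissues and Asns and Phgdh in 4 of 5. Within time points r ran from -0.034 to 0.92 for the former pair and from 0.53 to 0.80 for the latter. Psat1 and Phgdh had r = 0.91 and rho = 0.83 in the heart, where both were highest in the libraries with raised lymphocyte markers, and r was 0.81 without those libraries. In the muscle they had r = 0.82 and rho = 0.72, and r was 0.72 without the 2 libraries with raised adipocyte markers, which held Phgdh at 56.4 and 81.9 TPM. Atf4 and Asns passed in 2 of 6 tissues, at r = 0.45 in the lung and 0.86 in the cerebellum, the latter 0.66 without the libraries that stand apart. Chac1 and Sesn2 passed in the lung (r = 0.56, rho = 0.56) and the cerebellum (r = 0.80, rho = 0.84, and r = 0.83 within time points).

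**Figure D5:**
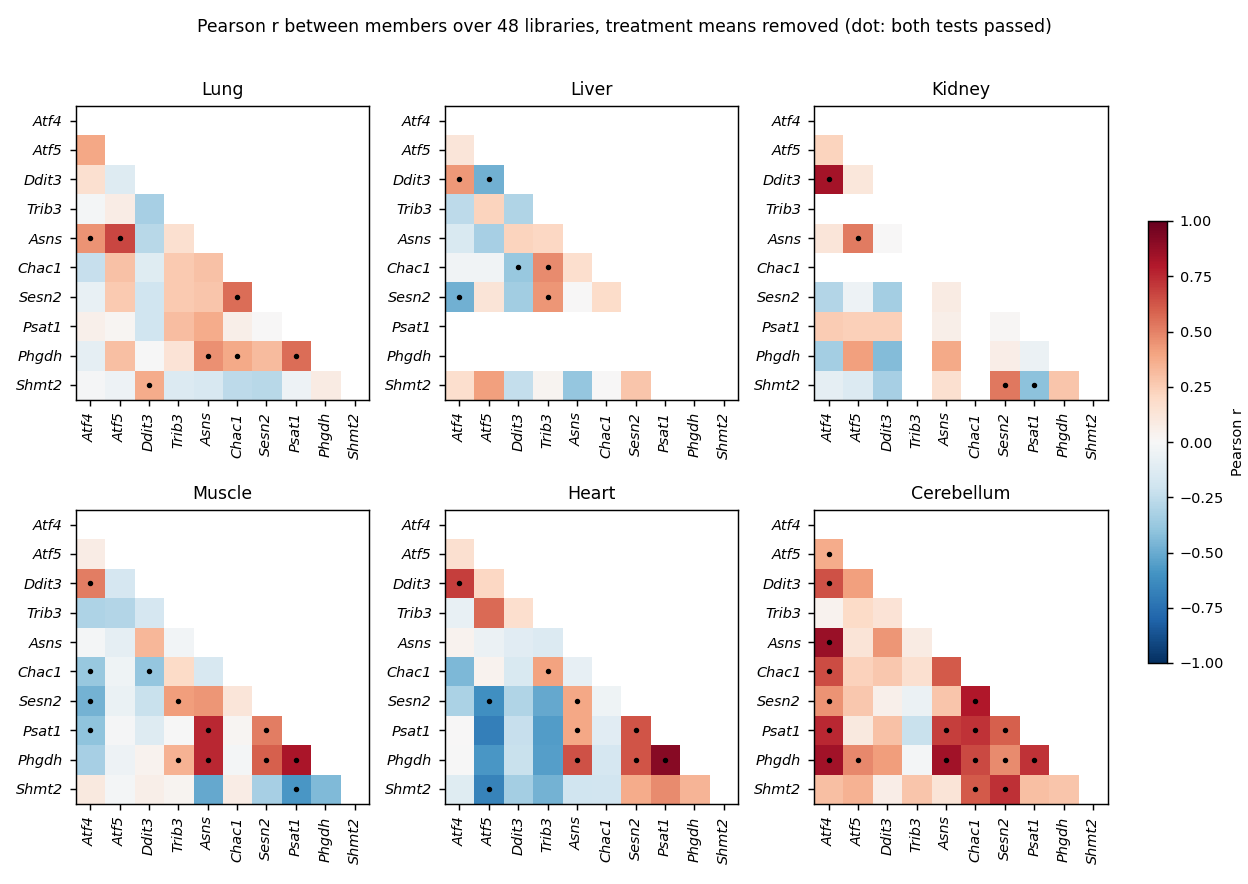
Pearson's r between members over the 48 libraries of each tissue, treatment means removed, on a color scale from -1 to 1. Dots mark 18 of 45 pairs in the cerebellum, all positive, and 7 of 45 in the lung, 6 of 28 in the liver, 4 of 28 in the kidney, 13 of 45 in the muscle and 10 of 45 in the heart.

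The genes most like the members as a group were sought among 9870 other genes with a mean of 1 TPM or more in all 6 tissues, by r to the mean standardized level of the members over the 48 libraries of a tissue, averaged over the tissues. The median gene had a mean r of 0.055. The 10 nearest ran from Cdk2ap2 (0.61), Retreg2, Prelid1 and Rtf2 (0.60 each) to Apoe (0.57), with Pgam1, Bcap31, Atp6v0d1, Raly and Srm between them. None of the 10 was among the 54 measured genes of the wider pathway lists. Their ranks were 3 to 21 without the libraries that stand apart.

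The wider pathway was described through 8 lists, whose counts stand beside 28.9% of all genes higher and 41.5% lower in the lung, 10.9% and 13.3% in the liver, 8.25% and 11.5% in the kidney, 5.48% and 4.89% in the muscle, 28% and 17.3% in the heart, and 9.76% and 5.24% in the cerebellum. The clearest group was the 12 cytosolic aminoacyl-tRNA synthetases, which charge tRNAs and are ATF4 targets. In the liver 10 of 12 fell, with Cars at -0.68 log2 (adjusted p = 1.29e-05, limma), Mars1 at -0.67 and Aars at -0.64, and a list median of -0.46. In the lung 10 of 12 fell, with a median of -0.33 and Gars lowest at -0.60, but on TPM as deposited 4 were higher and 2 lower. In the heart 7 rose and 1 fell, in the kidney 3 rose, with Mars1 at 0.31, and in the muscle 3 fell, with Cars at -0.16. In the cerebellum none passed and the median was 0.01. The liver fall followed the replicate numbers as Shmt2 did, with 2 of 12 passing without replicate 1, 3 without replicate 2 and 11 without replicate 3. Without replicate 2 the kidney count was 6, and before scaling none passed in the muscle. Without the libraries that stand apart, 11 fell in the liver, 4 fell in the muscle and 3 rose in the cerebellum.

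Other groups moved in single tissues. In the lung the 1-carbon and proline enzymes Aldh1l2 (1.11 log2, from 0.657 to 2.59 TPM) and Pycr1 (0.72) and the glutamine transporter Slc1a5 (0.51, from 101 to 180 TPM) rose while Mthfd1 fell (-0.67), so that 3 of 11 enzymes of that list rose and 3 fell (8 and 1 on TPM as deposited). Of the 7 genes for eIF2alpha, its kinases and its phosphatase subunits, 4 fell in the lung, among them Ppp1r15a (-0.57), which ends the response. A further 2 rose, among them Eif2ak2 (0.38), the kinase for viral RNA. Before scaling, 3 genes of this list were higher and 1 lower, with a median of 0.05 in place of -0.25. In the liver Mthfd1 (-0.76) was the 1 of 7 enzymes that fell, and Gdf15, a hormone released by stressed cells, was the 1 of 7 secreted and other targets (-0.63, adjusted p = 0.0159, limma). No gene of these 2 liver lists passed in limma without replicate 1 or without replicate 2.

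Genes of the neighbouring ATF6 and XBP1 arms, which serve protein folding, rose in the heart (4 of 8), led by the chaperone Hspa5 at 0.57 log2 (from 122.7 ± 39.7 to 200.2 ± 67.0 TPM) and Pdia4 at 0.47, and fell in the lung (5 of 8), where Pdia4 was at -0.69 and Hspa5 at -0.65. Before scaling, 2 of the lung genes were higher and 3 lower. Mitochondrial chaperones and proteases fell in the lung (5 of 5) and liver (3 of 5), while in the heart 3 of 5 rose, Hspa9 at 0.38 and Lonp1 at 0.35 among them, and Hspe1 fell (-0.31). Before scaling, 1 of 5 fell in the lung, with a list median of 0, and in the liver none of 5 passed without replicate 1 or without replicate 2. In the cerebellum 3 of 6 partner factors rose, Nfe2l1 (0.45), Jdp2 (0.43) and Cebpg (0.20), along with Ddit4 (0.48), an mTORC1 inhibitor. Without replicate 1 the partner factors that passed were 1 of 6, without replicate 2 none of 6, and before scaling 1 of 6. The medians of the cerebellar amino acid transporters (9 tested) and of the serine, proline and 1-carbon enzymes (11 tested) were -0.03 and -0.04, and no gene of either list passed, or 1 of each without the 2 libraries with raised heart markers. In the muscle Cth, which makes cysteine, rose (0.32, adjusted p = 0.00421, limma) as the 1 of 9 enzymes of that list, and none passed without replicate 2.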

How the data were processed

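RNA-seq was read from 12 tables, each with the 24 libraries of a tissue and treatment. The authors deposited estimated transcript abundance as TPM per gene. Per the labels and methods, kallisto and FastQC 0.11.3 were among the tools and the mouse build was mm10. TPM keeps no read depth, so depth and counting error are unknown here. Within a tissue each library was divided by its median ratio to the tissue's geometric means, 0.5 was added, log2 was taken, and genes with a mean of 1 TPM or more over the 48 libraries of a tissue were kept. Treatment was tested with limma 3.58.1 (R 4.3.3, empirical Bayes with a mean trend), with Benjamini-Hochberg adjustment over all genes of the tissue. A fold change is on the log2(scaled TPM + 0.5) scale and understates changes of low genes. Rhythm was tested with limma by cosine and sine terms of 24 h per treatment, and differences between tissues by an interaction over all libraries. Levels and correlations used 100000 permutations (Python 3.11.15, scipy 1.17.1, two-sided). The models were tested on simulated data. Alternatives covered the scaling, pseudocount, filter, time point, replicate number and single libraries.

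Groups came from the sample labels. The libraries of a group came from separate mice per the study's methods, while the 6 tissues of a time point may share mice. The correlation within libraries taken as an animal was 0.0308. Same-numbered libraries of both treatments were checked for pairing by the correlation of their deviations from group means. All 3 numbers were over 0.1 in the muscle (0.16 to 0.65), and not in the other tissues.

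The members, gene lists, marker lists and tests were chosen with earlier results of these data known. All 10 members are named. From the 8 wider lists the text draws on the up to 3 genes per list and tissue with the largest changes among those that passed, and the likeness rule named the 10 genes with the highest mean r to the mean of the members. The 8 libraries that stand apart were picked after their marker levels were seen.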

Additional observations from a re-analysis of the deposited data

Results flagged for a closer look

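The change after IH went apart between lung and heart for 4 of 10 members and for 56.3% of all genes, by the interaction test of limma. The members thus did not differ more often than genes at large. Atf4 fell in the lung and hardly moved in the heart, a difference of -0.55 log2 (SE 0.105, adjusted p = 1.48e-06). Asns fell in the lung and rose in the heart, a difference of -0.93 (SE 0.194, adjusted p = 1.31e-05). Psat1 differed by -0.43 (adjusted p = 0.0357) and Sesn2 by -0.33 (adjusted p = 0.0484), and both lost the call on TPM as deposited (-0.24 and -0.12), without replicate 1 (-0.33 and -0.08) and without replicate 2 (-0.20 and -0.27). These tissues also differed in the direction in which the number of genes detected moved, from 22694 in normoxia to 25455 after IH in the lung and from 25124 to 21447 in the heart. The part of that number in the difference between the tissues was not tested.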

How the results depend on the processing

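TPM holds no counts, so the precision of low members such as Trib3 and Chac1 cannot be set by depth, and p-values measure the spread between libraries. The range of the counts of changed members over leaving out a replicate number or a time point was 3 to 5 for lung, 0 to 2 for liver, 2 to 3 for kidney, 0 to 1 for muscle, 1 to 5 for heart and 1 to 6 for cerebellum. It was 2 to 6 for rhythms in normoxia and 2 to 7 after IH, 3 to 10 for differences between tissues and 2 to 6 between lung and heart. Where no value is given for a cause, the cause was not tested.

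In the lung the count was 7 on TPM as deposited, 5 with a term for genes detected, and 5 within replicate number 1 or 3 alone. In the liver it was 2 on TPM as deposited, with time point as a factor, with time point and replicate block, and without the IH library of replicate 2 at 13:30, and 0 within replicate number 2 or 3 alone. In the kidney it was 1 with a minimum of 5 TPM, 0 within replicate number 1 and 1 within replicate number 3. In the muscle it was 0 within each number alone, which leaves 16 libraries. In the heart it was 2 with upper quartile scaling, 1 with a minimum of 5 TPM, 2 with no filter, 0 with a term for genes detected, and 0 within replicate number 2 or 3. Genes detected did not overlap between treatments in the heart, so that term cannot be told apart from treatment there. In the cerebellum it was 2 with a minimum of 5 TPM and within replicate number 1, and 0 within replicate number 3. A higher minimum tests fewer members.

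With a replicate block the counts were 3 for lung, 1 for liver, 2 for kidney, 1 for muscle, 4 for heart and 4 for cerebellum, with 10 rhythms in normoxia, 11 after IH and 0 that differed. The change of Ddit3 in Muscle, the tissue where the numbers pair, was then 0.31 (adjusted p = 0.00906, limma). Each number was closest to its own in 2 of 3 cases in the liver and the muscle and in 0 of 3 in the other tissues. The labels give a number and no pairing, so pairing was not established in any tissue.

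The direction turned for Atf5 in the lung, at 0.26 on TPM as deposited and 0.33 with the term for genes detected, and for lung Phgdh, at 0.28 and 0.40. Lung Sesn2 was 0.38 with that term. Within replicate number 3 alone lung Sesn2 was 0.36, lung Phgdh 0.37, liver Shmt2 0.23 and cerebellar Chac1 -0.01, and within replicate number 1 alone heart Trib3 was -0.07.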

Other observations

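In the muscle, marker genes of neutrophils stood over 500 TPM in 9 of the 16 libraries of replicate 3, with a median of 798.2 TPM, and in 1 of 16 libraries of each other replicate number, with medians of 3.09 and 3.21 TPM. The change of Ddit3 in the muscle after IH was 0.35 log2 within replicate numbers 1 and 3 and 0.23 within replicate number 2.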
